A study of Mus musculus with 8 samples.

Results

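The corticosteroid pathway of the outer medullary collecting duct was followed in mice on a high-salt and a normal-salt diet through 8 genes. They are the mineralocorticoid receptor Nr3c2, the glucocorticoid receptor Nr3c1, the enzymes Hsd11b2 and Hsd11b1, and the target genes Tsc22d3, Fkbp5, Zbtb16 and Rasd1. The genes were picked by symbol from the 55291 in the deposited tables, and all 8 were found. The segment was dissected from kidneys of C57BL/6J mice treated with liberase, a collagenase mix, after 3 days on food with 3% salt (high salt, 4 libraries) or 0.3% salt (normal salt, 4 libraries). Each library pooled 100 to 120 tubules of a single mouse, and mice of both diets were wild type. The study asked which transcripts differ in abundance between the diets.

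Aldosterone and the glucocorticoids, which in mice means mainly corticosterone, act through Nr3c2 and Nr3c1. Nr3c2 binds both kinds of steroid, and the collecting duct is a classical aldosterone target because Hsd11b2 turns corticosterone into an inactive keto form there. Hsd11b1 usually works the other way and regenerates active glucocorticoid. A steroid-bound receptor leaves its heat-shock protein complex, enters the nucleus and binds response elements near its target genes. Dietary salt loading is known to lower circulating aldosterone, a hormone that was not measured here.

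In GENCODE M21 on mm10 these symbols match protein-coding genes. Chromosome 8 carries Nr3c2 (76899442 to 77245012) and Hsd11b2 (105518755 to 105523988), both on its plus strand. Hsd11b1 spans 193221634 to 193264075 on the minus strand of chromosome 1. Fkbp5 spans 28399094 to 28517527 on chromosome 17, Zbtb16 spans 48654297 to 48836222 on chromosome 9 and Rasd1 spans 59963181 to 59964944 on chromosome 11, each on the minus strand. Tsc22d3 lies on the minus strand of chromosome X from 140539528 to 140600659. Transcripts of a gene were not told apart. GENCODE lists 15 for Fkbp5 and 6 for Tsc22d3.

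Library totals were 69.2 to 87.7 M estimated counts under high salt and 64.8 to 94.1 M under normal salt. Markers of principal cells (9 of 9) and of intercalated cells (10 of 10), the epithelial cells of this duct, passed the filter on low values. Principal cell markers summed to 22356 to 28013 CPM under high salt and to 14119 to 19516 CPM under normal salt, without overlap. Aqp2, named after its values were seen, made up most of that sum (means 15689 and 9979 CPM under high and normal salt). Mean log2(CPM + 1) of the 9 markers was 9.79 to 9.96 under high salt and 9.66 to 9.78 under normal salt. Of the 9, 6 had higher and 3 lower means under high salt (median log2 fold change 0.09), and Scnn1b was lower without overlap. Intercalated cell markers summed to 8577 to 10349 CPM under high salt and to 10186 to 11342 CPM under normal salt, and their mean log2(CPM + 1), 9.14 to 9.24 under high salt and 9.39 to 9.502 under normal salt, did not overlap. Normal-salt library 1 stood apart. Its mitochondrial share was 8.55%, against 5.77% to 6.49% in the other 7 libraries, and its median TPM per CPM was 0.587, against 0.682 to 0.710. In it, fibroblast and pericyte markers summed to 299 CPM, and macrophage and leukocyte markers to 85.6 CPM. In the other normal-salt libraries these sums were 30.3 to 53.0 CPM and 36.3 to 39.8 CPM. Under high salt they were 47.6 to 141 CPM and 30.3 to 53.9 CPM. Library 6 of each diet stood apart in clock genes, as described further on. Thick ascending limb markers, from the neighbouring segment, summed to 89.1 to 2433 CPM under high salt and to 557 to 1868 CPM under normal salt, and 7 of 7 had lower means under high salt (median log2 fold change -1.29, with 0 called by limma). In pooled tubules, fewer cells of a type and less RNA per cell cannot be told apart. Nothing in the labels pairs mice across diets, and p-values of diet comparisons set a difference between diets against the spread among these mice.

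Per length, in TPM, Hsd11b2 was by far the most abundant of the 8 genes. Over the 8 libraries it averaged 3560 ± 167 TPM (SD) and ranked 23rd among 30344 genes above 0. Rasd1, at 184 to 375 TPM, came next and did not overlap any other member. Nr3c2 (33.9 to 74.4 TPM), Fkbp5 (22.9 to 58.3 TPM) and Tsc22d3 (25.4 to 42.1 TPM) overlapped one another, so their order by mean does not separate them. The glucocorticoid receptor Nr3c1 lay lower, at 6.66 to 18.1 TPM, and Zbtb16 ran from 0.592 to 24.0 TPM, a range that contains that of Nr3c1. Hsd11b1 had the lowest mean, at 0.363 to 3.62 TPM, and overlapped Zbtb16 alone.

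**Figure D1:**
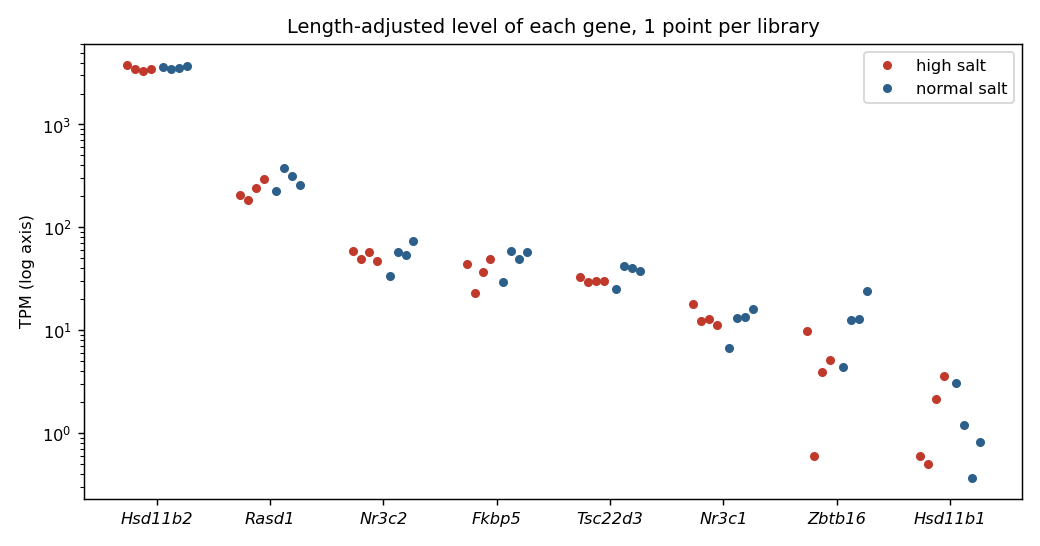
Level of each gene in TPM, on a log axis, with 1 point per library and the 4 high-salt libraries to the left of the 4 normal-salt libraries. Hsd11b2 lies above 3314 TPM in every library, while Hsd11b1 stays under 3.62 TPM.

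The receptors had close means under both diets. Nr3c2 had 176, 157, 178 and 150 CPM in high-salt libraries 2, 3, 4 and 6, against 134, 167, 169 and 213 CPM in normal-salt libraries 1, 2, 3 and 6. The high-salt values lay inside the normal-salt range. The log2 fold change, taken on log2(CPM + 1) here and below, was -0.03 (95% interval -0.32 to 0.26, limma adjusted p = 0.96). Nr3c1 had 51.3, 35.9, 38.7 and 34.8 CPM under high salt, against 27.7, 39.4, 40.6 and 47.7 CPM under normal salt. Its diets overlapped, with the highest value in high-salt library 2 and the lowest in normal-salt library 1, and its log2 fold change was 0.06 (95% interval -0.32 to 0.43, limma adjusted p = 0.941). The interval of Nr3c1 reaches 0.43 on the log2 scale, so these tests do not show that the receptors were alike between diets.

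Within every library the mineralocorticoid receptor transcript exceeded the glucocorticoid receptor transcript per length. The TPM ratio of Nr3c2 to Nr3c1 was 3.28, 4.00, 4.42 and 4.17 under high salt and 5.09, 4.43, 4.00 and 4.60 under normal salt. The log2 ratio averaged 1.98 ± 0.19 under high salt and 2.17 ± 0.14 under normal salt (SD, n = 4 each). The difference of -0.19 did not pass an exact two-sided permutation test (p = 0.143, where the smallest possible p is 0.0286).

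Hsd11b2, which guards Nr3c2 against glucocorticoid, varied little among mice. It had 4238, 3886, 3760 and 3904 CPM under high salt and 4510, 3807, 3944 and 4007 CPM under normal salt. The coefficient of variation was 5.17% under high salt and 7.54% under normal salt, and the diets overlapped (log2 fold change -0.04, 95% interval -0.33 to 0.25, limma adjusted p = 0.942). The TPM ratio of Hsd11b2 to Nr3c2 ran from 57.8 to 73.7 under high salt and from 50.2 to 108 under normal salt, where 108 was normal-salt library 1. Its log2 difference between diets was -0.04 (exact permutation p = 0.914).

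Hsd11b1 was the 1 member below the filter of 1 CPM in at least 4 libraries. It had 0.388, 0.386, 1.46 and 2.36 CPM under high salt and 2.68, 0.761, 0.149 and 0.520 CPM under normal salt, from 14 to 174 estimated counts a library. The difference of mean log2(CPM + 1) was 0.12 (exact permutation p = 0.83), and the diets overlapped over most of their range. The 3 libraries with the most Hsd11b1 (normal-salt 1, high-salt 6 and high-salt 4) were also the 3 highest in summed proximal tubule markers, at 87.9, 110 and 76.2 CPM. Over all libraries these markers summed to 5.98 to 110 CPM under high salt and to 2.54 to 87.9 CPM under normal salt. Kap made up most of these sums, with means of 43.4 CPM under high salt and 34.3 CPM under normal salt. Mean log2(CPM + 1) of the 10 markers was highest in the same 3 libraries (1.00, 1.71 and 1.10), against 0.222 to 0.725 in the others. Only 2 of the 10 markers passed the filter, Lrp2 and Kap, while Slc5a12 was the 1 marker at 0 in all 8 libraries. Below the filter, Cubn reached 2.83 CPM, Slc34a1 2.40 CPM, Slc13a3 1.13 CPM and Miox 1.11 CPM in their highest library. These proximal tubule markers were named after their values were seen. The same 3 libraries were also the 3 highest in summed macrophage and leukocyte markers. Those sums were 85.6 CPM in normal-salt library 1, 53.9 CPM in high-salt library 6 and 45.7 CPM in high-salt library 4. In mean log2(CPM + 1) of those markers, normal-salt library 3 (1.95) lay above high-salt library 4 (1.82). The part of either marker set in the Hsd11b1 values was not tested.

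The 4 target genes are induced by glucocorticoids in many tissues. Tsc22d3 (also called GILZ) is a leucine zipper protein, and Fkbp5 is a cochaperone that binds the receptor complex and lowers its affinity for steroid. Zbtb16 is a zinc finger transcription factor, and Rasd1 is a small G protein first described as induced by dexamethasone. A pair of RefSeq promoter windows is shown because it holds the consensus steroid response element or a single site of it: one of Tsc22d3, and one of Sgk1, the aldosterone-induced kinase that raises sodium channel activity. Each window runs from 250 bases before a transcript start to 50 after it, in build GRCm38.p6, and capitals mark matches. The single site is AGAACA on either strand, and the full element is a pair of these sites, 1 on each strand, facing each other with any 3 bases between them.
Tsc22d3, chrX:140600473-140600772, minus strand: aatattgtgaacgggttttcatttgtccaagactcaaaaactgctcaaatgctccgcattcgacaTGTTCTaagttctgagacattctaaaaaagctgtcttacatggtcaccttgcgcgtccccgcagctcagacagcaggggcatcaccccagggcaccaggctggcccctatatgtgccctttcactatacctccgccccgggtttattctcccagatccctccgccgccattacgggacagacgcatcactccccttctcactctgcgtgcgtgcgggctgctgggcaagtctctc
Sgk1, chr10:21993640-21993939, plus strand: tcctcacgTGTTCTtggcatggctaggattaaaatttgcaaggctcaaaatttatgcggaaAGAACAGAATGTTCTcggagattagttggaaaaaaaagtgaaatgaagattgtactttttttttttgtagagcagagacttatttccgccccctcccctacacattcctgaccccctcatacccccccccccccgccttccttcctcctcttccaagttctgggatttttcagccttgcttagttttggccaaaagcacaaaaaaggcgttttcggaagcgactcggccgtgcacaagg

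The full element occurred in 3 of 32851 promoter windows (0.00913%), and the Sgk1 window above was 1 of them, 1 of 6 listed for that gene. The single site occurred in 18.97% of all windows and in 1 of the 6 windows listed for 4 members (Nr3c2, Hsd11b1, Tsc22d3 and Fkbp5). Both strands were searched, and a full element also holds the single site on each strand. These are matches of letters only.

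Tsc22d3 had 33.8, 31.6, 32.6 and 31.1 CPM under high salt, against 33.1, 43.7, 43.4 and 37.2 CPM under normal salt. The high-salt libraries lay within a span of 1.09-fold, and only normal-salt library 1 overlapped them. The mean was 32.3 ± 1.21 CPM under high salt and 39.3 ± 5.10 CPM under normal salt (SD, n = 4 each), with a log2 fold change of -0.27 (SE 0.11, 95% interval -0.51 to -0.03). The limma adjusted p over all genes was 0.423.

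Fkbp5 had 95.5, 51.0, 82.3 and 97.1 CPM under high salt, against 74.5, 126, 108 and 123 CPM under normal salt. Again the overlap came from normal-salt library 1 alone, which lay under 3 of the 4 high-salt libraries. The means were 81.5 ± 21.4 CPM under high salt and 108 ± 23.6 CPM under normal salt (SD, n = 4 each; log2 fold change -0.41, SE 0.22, limma adjusted p = 0.56). Without high-salt library 3 the log2 fold change was -0.21.

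Zbtb16 varied more among mice than nearly any other gene. It had 29.3, 1.96, 12.1 and 14.5 CPM under high salt, against 15.1, 35.6, 38.4 and 68.1 CPM under normal salt. High-salt library 3 was lowest and normal-salt library 6 was highest, and the span within a diet was 14.96-fold under high salt and 4.52-fold under normal salt. Its residual standard deviation within diets, 1.17 on the log2 scale, was at percentile 99.6 of the genes tested. The means were 14.4 ± 11.3 CPM under high salt and 39.3 ± 21.8 CPM under normal salt (SD, n = 4 each), and the log2 fold change of -1.62 (SE 0.63, 95% interval -3.01 to -0.22) had a limma adjusted p of 0.405. Without high-salt library 3 the log2 fold change was -0.96.

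Rasd1 had 192, 175, 231 and 278 CPM under high salt, against 244, 345, 298 and 236 CPM under normal salt. High-salt library 6 lay above normal-salt libraries 1 and 6, so the diets overlapped. The means were 219 ± 45.8 CPM under high salt and 281 ± 51.3 CPM under normal salt (SD, n = 4 each; log2 fold change -0.36, SE 0.16, limma adjusted p = 0.48).

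**Figure D2:**
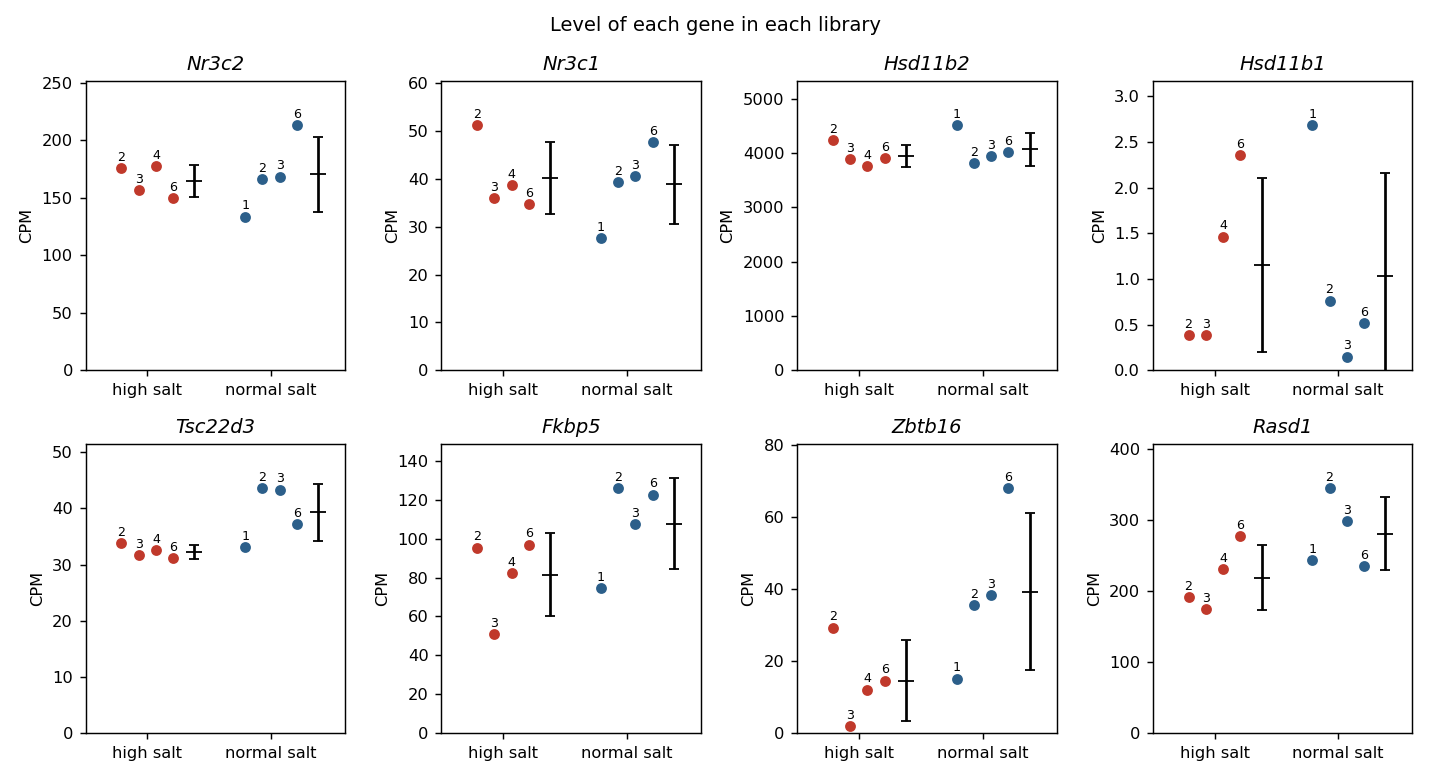
CPM of each member in each library, with the library number above each point and the mean ± SD of each diet (n = 4) beside the points. The lower end of the normal-salt bar of Hsd11b1 lies below 0 and is not drawn. In Tsc22d3, Fkbp5 and Zbtb16 normal-salt library 1 lies below the other 3 of its diet and among the high-salt libraries.

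All 4 targets had a lower mean under high salt, as did 47.2% of all genes tested. Limma called 0 of the 7 members tested, where 0.0821% of 13401 genes were called (0.0298% higher and 0.0522% lower). On simulated data with known changes the same step called 33.9% of 1.5-fold changes. The 0 calls therefore do not show that the members were alike between diets. Before adjustment 3 members (Tsc22d3, Zbtb16 and Rasd1), all lower, had p under 0.05 in limma. Over all genes 10.3% did so, 4.37% lower and 5.95% higher. With voom on the estimated counts 0 members were called as well, and 2 were lower at an unadjusted p under 0.05. Of all 13401 genes, 1389 had such a p with voom, in either direction. Neither the receptors nor Hsd11b2 had an unadjusted p under 0.05 in either fit.

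Leaving out normal-salt library 1 moved the targets further apart. Since that library alone made the overlap in Tsc22d3, Fkbp5 and Zbtb16, these 3 then had none, as had 5.31% of all genes in the lower direction, and nothing is read from that count. Their log2 fold changes were -0.35, -0.58 and -1.998, and that of Rasd1 was -0.43. At that sample size all 4 targets were lower with unadjusted p under 0.05 (5.64% of all genes), and 0 were called over all genes, where 0.373% were (limma adjusted p 0.131 to 0.308). That library was the lowest of its diet in Tsc22d3, Fkbp5 and Zbtb16, so leaving it out raises their normal-salt means by itself. Nothing is read from these unadjusted p either. The receptors and Hsd11b2 were at log2 fold changes of -0.14 for Nr3c2, -0.09 for Nr3c1 and 0.01 for Hsd11b2. When high-salt library 3 or normal-salt library 3 was left out, 0 members had an unadjusted p that low, where 1126 and 1231 of 13401 genes did. With the mean of the thick ascending limb markers in the fit, 1 member (Tsc22d3) had one, where 1069 of 13401 genes did. Log2 fold changes were then -0.33 for Tsc22d3, -0.34 for Fkbp5, -1.55 for Zbtb16 and -0.22 for Rasd1. The part of principal cell, intercalated cell, fibroblast and leukocyte markers in the target values was not tested.

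**Figure D3:**
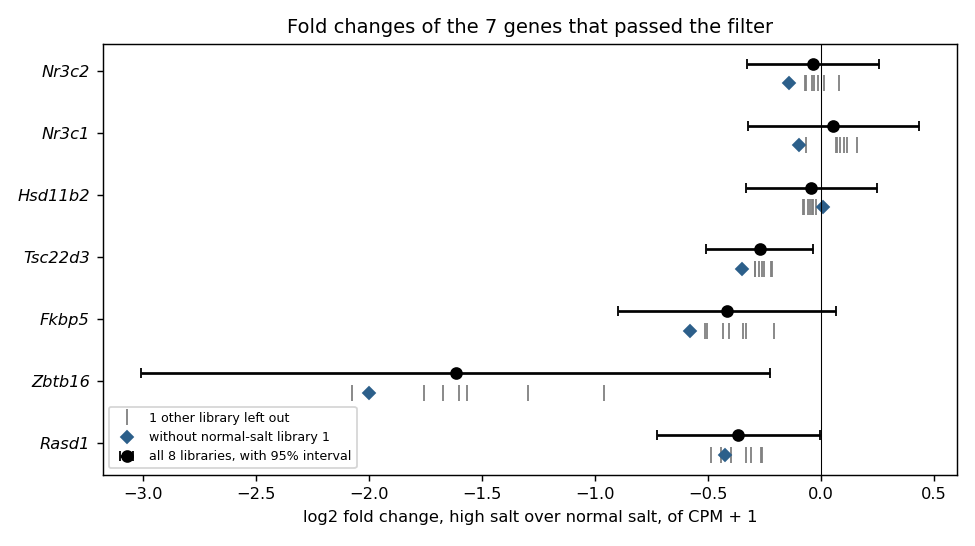
Log2 fold change of CPM + 1, high salt over normal salt, for the 7 members tested. Black points with 95% intervals use all 8 libraries, diamonds leave out normal-salt library 1 and ticks leave out 1 other library each. The 4 targets lie left of 0 in all of these fits, and the receptors and Hsd11b2 lie around 0.

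Among the targets, Fkbp5 and Zbtb16 followed each other from mouse to mouse. Over the 8 libraries their log2(CPM + 1) had a Pearson r of 0.940 (exact permutation p = 0.00154, adjusted over 6 pairs p = 0.00923) and a Spearman rho of 0.810 (exact permutation p = 0.0218, adjusted p = 0.0653). Without the 2 libraries farthest from the median of Fkbp5, high-salt library 3 and normal-salt library 2, r was 0.870. With each diet centred on its own mean r was 0.921 (exact permutation p = 0.0174 within diets, adjusted p = 0.104). Within diets it rested more on 2 libraries, since r was 0.475 without high-salt library 3 and normal-salt library 1. Without high-salt library 3, the lowest in both genes, r over the other 7 was 0.834 (exact permutation p = 0.026, adjusted p = 0.156).

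The other 5 pairs of targets had Pearson r of 0.551 to 0.714, and 0 of them passed adjustment over the 6 pairs (exact permutation, adjusted p 0.0897 to 0.152). Tsc22d3 with Zbtb16 had an r of 0.657 and a rho of 0.833 (exact permutation p = 0.0154, adjusted p = 0.0653), and r was 0.801 without normal-salt libraries 2 and 3. With each diet centred on its own mean that pair had an r of 0.367 and a rho of 0.0238 (exact permutation p = 0.285 and 0.99). Centred in this way the remaining 4 pairs, apart from Fkbp5 with Zbtb16, had r of 0.281 to 0.586 (exact permutation, adjusted p 0.35 to 0.578). Tsc22d3 with Rasd1, at 0.692, rested on those same 2 libraries, since r was -0.00 without them. Fkbp5 with Rasd1 rested on 2 libraries likewise, with r at 0.714 over all libraries and 0.184 without high-salt library 3 and normal-salt library 2.

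**Figure D4:**
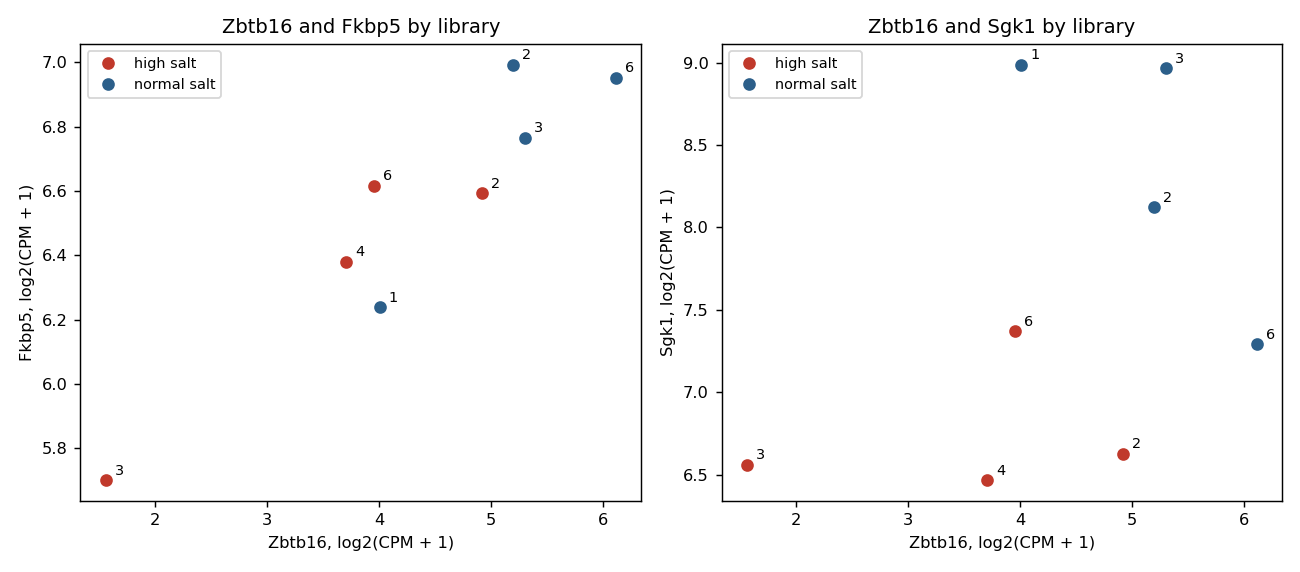
Log2(CPM + 1) of Fkbp5 (left) and Sgk1 (right) against that of Zbtb16, with 1 numbered point per library. Fkbp5 lines up with Zbtb16 over the 8 libraries (r = 0.940), whereas normal-salt library 6 is highest in Zbtb16 and lowest of its diet in Sgk1.

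Sgk1 did not order the mice as Zbtb16 and Fkbp5 did. It had 97.8, 93.4, 87.5 and 164 CPM under high salt, against 506, 278, 499 and 156 CPM under normal salt. The log2 fold change was -1.59 (SE 0.35, limma adjusted p = 0.124). Over 19 alternative settings that p ran from 0.0369, with array quality weights, to 0.449, without a filter. Normal-salt library 1, lowest of its diet in Tsc22d3, Fkbp5 and Zbtb16, was highest in Sgk1, and normal-salt library 6, highest in Zbtb16, was the only one of its diet inside the high-salt range of Sgk1.

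The genes closest to each target were found by the root mean square difference between profiles of log2(CPM + 1) over the 8 libraries, each centred on its own mean. Closest to Zbtb16 were Phkg1 (0.79), Gm43305 (0.80) and the calcium-activated potassium channel Kcnn3 (0.86), and Fkbp5 (0.94) ranked 11th of 13400. From the side of Fkbp5, which varied less, Zbtb16 at that same distance ranked 13180th, Tsc22d3 527th and Rasd1 267th. Closest to Fkbp5 were Ushbp1 (0.11), the coactivator Ppargc1a (0.12) and Mturn (0.15). Ppargc1a had 225, 143, 216 and 256 CPM under high salt and 200, 335, 241 and 269 CPM under normal salt, so that, like Fkbp5, it was lowest in high-salt library 3 and highest in normal-salt library 2. Closest to Tsc22d3 were Retreg1 (0.08), Abhd4 (0.09) and Cdh1 (0.09), and closest to Rasd1 were Slc6a17, Cfap300 and N4bp3 (0.13 to 0.14). Kcnn3 fell under high salt (log2 fold change -1.43, limma adjusted p = 0.0201, and 0.0144 to 0.0766 with 1 library left out), and the others did not pass. Over 19 alternative settings the limma adjusted p of Kcnn3 ran from 0.0085 to 0.209, the latter without a filter, and was 0.147 on TPM.

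The machinery around the receptors was present and showed 0 called genes. Of 13 chaperones and cochaperones apart from Fkbp5, 9 had higher means under high salt, with a median log2 fold change of 0.07, where the median of all genes tested was 0.01. Stip1, which hands the receptor from one heat-shock protein to the next, had 147 ± 8.41 CPM under high salt and 135 ± 6.70 CPM under normal salt, and Fkbp4, the counterpart of Fkbp5 in the complex, had 273 ± 13.9 CPM under high salt and 251 ± 14.1 CPM under normal salt (limma adjusted p 0.646 and 0.674). Dnajb1 and Ahsa1 had log2 fold changes of -0.28 and -0.16. Of 17 coregulators 11 had higher means with a median of 0.07. That median was -0.09 without normal-salt library 1. Those with the smallest p were Daxx (-0.23), Ppargc1a (-0.32), Smarca4 (0.15) and Nrip1 (0.33), with limma adjusted p of 0.584 to 0.624. At an unadjusted p under 0.05 there were 0 genes in either list, against 10.3% of all genes, and 47.2% of all genes had lower means.

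Of the genes that make, carry or clear steroid, few reached the filter. H6pd, which supplies the cofactor of Hsd11b1, had 217 ± 16.2 CPM under high salt and 214 ± 30.9 CPM under normal salt, and the reductase Srd5a1 had 4.28 ± 1.35 CPM under high salt and 3.76 ± 0.481 CPM under normal salt (limma adjusted p 0.953 and 0.874). Aldosterone synthase (Cyp11b2), Cyp21a1 and the corticosteroid-binding globulin Serpina6 had 0 counts in all 8 libraries, which allows up to 0.0463 CPM in the shallowest library, and were named for that. The progesterone receptor Pgr, another steroid receptor, was at 26.6 ± 1.67 CPM under high salt and 23.9 ± 6.51 CPM under normal salt (log2 fold change 0.18, limma adjusted p = 0.772). The estrogen receptors Esr1 and Esr2, also named after their values were seen, stayed below the filter.

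Of 4 paralogues of Tsc22d3 and Rasd1, 3 had lower means under high salt, as had 47.2% of all genes. The mean was higher in 1, and 0 were called. Tsc22d1 had 326 CPM under high salt and 261 CPM under normal salt (log2 fold change 0.31, limma adjusted p = 0.383), opposite in sign to Tsc22d3. Tsc22d4 (-0.13), Tsc22d2 (-0.01) and Rasd2 (-0.44) had limma adjusted p of 0.657 to 0.992.

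Genes that aldosterone or glucocorticoids are known to induce were counted apart from the 8 members. Of 15 aldosterone-induced genes tested, Scnn1a fell and 0 rose over all genes, where 0.0522% of all genes were called lower and 0.0298% higher. Lower means were found in 10, against 47.2% of all genes, and the median log2 fold change was -0.19. Scnn1a, which encodes the alpha chain of the sodium channel ENaC, had 496, 443, 352 and 650 CPM under high salt, against 1394, 1086, 1165 and 1147 CPM under normal salt, without overlap (log2 fold change -1.33, limma adjusted p = 0.026, and 0.0105 to 0.109 with 1 library left out). Over 19 alternative settings the limma adjusted p of Scnn1a ran from 0.0091 to 0.228, the latter without a filter. Scnn1b, the beta chain, was without overlap too (-0.49, limma adjusted p = 0.281), and the potassium channel Kcnj1 lay the other way (0.61, limma adjusted p = 0.0937). The adjusted p of Kcnj1 ran from 0.046, with array quality weights, to 0.45, without a filter, over 19 alternative settings. No overlap in the lower direction was found in 2.75% of all genes and in the higher direction in 3.66%.

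Of 27 glucocorticoid-induced genes tested, 18 had lower means, as had 47.2% of all genes, and 0 were called. At an unadjusted p under 0.05 there were 2 lower (Sgk1 and Klf15) and 2 higher (Nfkbia and Cdkn1a). Over all genes tested 4.37% were lower and 5.95% higher at such a p, and nothing is read from these counts. The median log2 fold change was -0.06. Klf15, a transcription factor of amino acid and glucose metabolism, had 20.5, 20.9, 21.5 and 48.6 CPM under high salt, against 63.8, 53.0, 52.6 and 40.6 CPM under normal salt (-0.97, limma adjusted p = 0.182). Klf15 was called without high-salt library 6 (-1.27, limma adjusted p = 0.0164), and it was at -0.59 with the thick ascending limb markers in the fit (limma adjusted p = 0.341). Only high-salt library 6 and normal-salt library 6 crossed between the diets. Nfkbia, the inhibitor of NF-kappa-B, had 139 ± 82.4 CPM under high salt and 74.1 ± 15.03 CPM under normal salt (0.75, limma adjusted p = 0.438), and Cdkn1a, a cell cycle inhibitor, had a log2 fold change of 0.34.

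**Figure D5:**
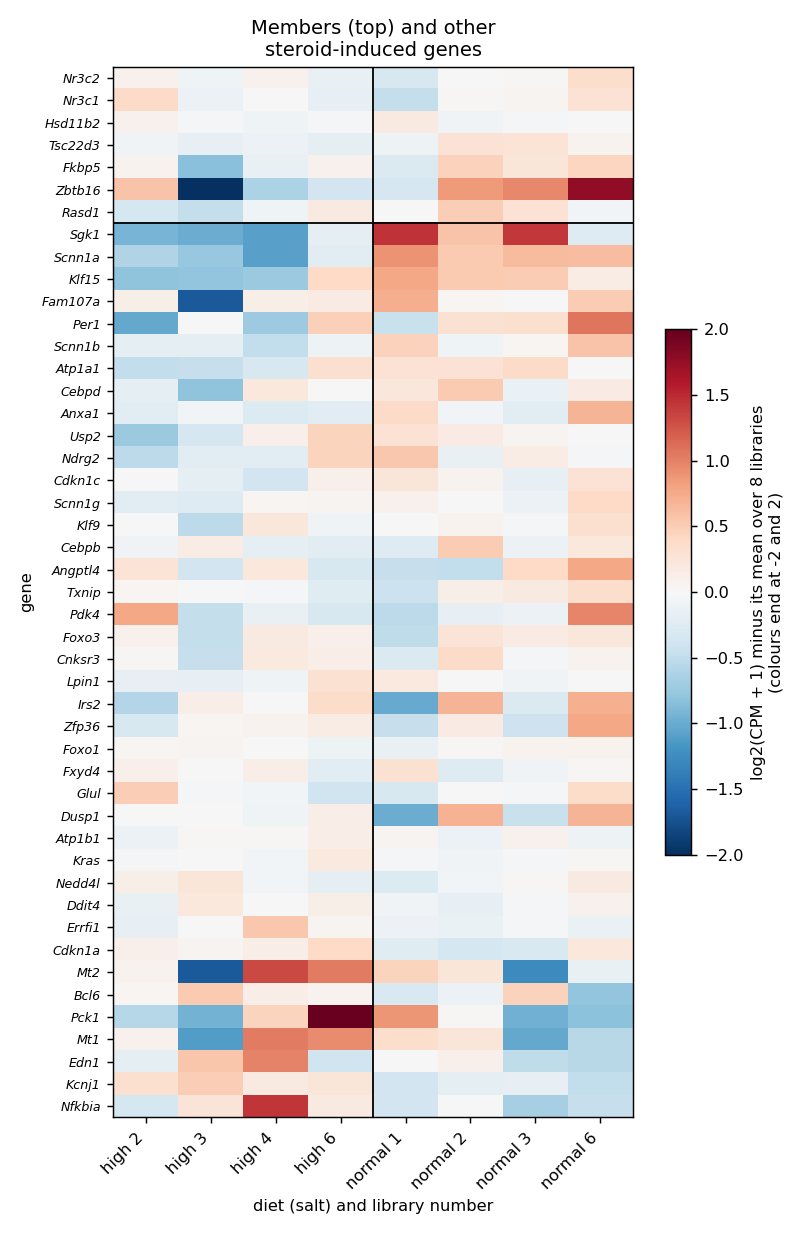
Log2(CPM + 1) of the 7 members tested (above the line) and of 40 other aldosterone- or glucocorticoid-induced genes, sorted by fold change, minus each gene's mean over 8 libraries. High-salt libraries are left of the vertical line. Sgk1 and Scnn1a are highest in normal-salt library 1, where Zbtb16, Fkbp5 and Nr3c1 are below their means.

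Most clock genes moved with library 6 in both diets. Of 14 tested, 9 (Per1, Per2, Per3, Nr1d1, Nr1d2, Dbp, Tef, Hlf and Bhlhe41) were highest in library 6 of each diet. Arntl and Npas2, of the positive arm of the clock, were lowest there. Clock, also of that arm, was not. It was highest of its diet in normal-salt library 6 (107 CPM) and in high-salt library 3 (98.3 CPM). These names were read off after the values were seen. Per1, which glucocorticoids and aldosterone also induce, had 22.6, 47.4, 28.0 and 65.9 CPM under high salt, against 34.3, 58.1, 59.1 and 99.5 CPM under normal salt (log2 fold change -0.63, limma adjusted p = 0.592). Arntl had 22.8, 25.03, 20.1 and 16.7 CPM under high salt and 32.8, 34.1, 30.5 and 13.6 CPM under normal salt (-0.31, limma adjusted p = 0.739). Normal-salt library 6 was the highest in Zbtb16, Nr3c2 and, with a sum of 14891 CPM, immediate early genes, which ran from 4913 to 8234 CPM in the other 7 libraries. Limma called 0 of the 14 clock genes and 10 immediate early genes, and 0 had p under 0.05 before adjustment, against 10.3% of all genes. With normal-salt library 6 left out, log2 fold changes were -1.30 for Zbtb16, -0.34 for Fkbp5, -0.29 for Tsc22d3 and -0.44 for Rasd1. The part of clock or immediate early genes in the target values was not tested.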

How the data were processed

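RNA was measured in 8 libraries of mouse outer medullary collecting duct, 4 per diet. Per the labels' protocols the libraries came from a stranded mRNA kit. The submitters' processing notes name FastQC, Trimmomatic and build mm10. How reads were aligned and counted, and with which annotation and strand setting, is not given in the sources used here. CPM, which are counts scaled to the library's total, were deposited by the authors on a log2 scale, with a floor of -5.29 shared by all libraries, and a table of TPM, which also takes length into account. Both hold 55291 symbols. Column numbers do not match the sample titles, so a library is called by its diet and its column's number.

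Log2 values were put back to linear CPM by taking off the floor. The CPM steps gave estimated counts, of which 83.7% to 85.2% of those under 400 were whole within 0.005. Genes with at least 1 CPM in at least 4 libraries were kept (13401). Log2(CPM + 1) was fitted with limma 3.58.1 in R 4.3.3 (mean-variance trend, two-sided, Benjamini-Hochberg adjustment over all genes kept), and adjusted p under 0.05 made a call. The 1 member below the filter, ratios and correlations were tested by exact permutation in Python 3.11.15. The limma step was tested on simulated data. Alternatives covered the pseudocount, filter, scaling, TPM, voom, weights, covariates and each library left out.

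The members and gene lists were chosen with earlier results of these data known. From each list, called genes and those with the smallest p, up to 4, are named. For each target, the 3 genes with the most similar profile are named. Other genes named were chosen after their values were seen and are said to be so.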

Additional observations from a re-analysis of the deposited data

Results flagged for a closer look

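A library lying far from the other 3 of its diet was looked for in 76 groups of 4, those of the 8 members and of the genes named from the lists, on the log2(CPM + 1) scale. The measure was the gap to the nearest library divided by the range of the 4, and it was above Dixon's critical value for 4 in 6 groups, where chance flags about 1 group in 20. None of the 6 was a member. Klf15 in high-salt library 6 had 48.6 CPM, against 20.5 to 21.5 CPM in the other high-salt libraries (0.950). Jun in high-salt library 3 had 813 CPM, against 583 to 611 CPM (0.860), and Tsc22d2 in the same library had 37.4 CPM, against 28.9 to 30.1 CPM (0.850). In normal-salt library 6 the clock gene Arntl had 13.6 CPM, against 30.5 to 34.1 CPM in the other normal-salt libraries (0.878), and Dnajb1 had 137 CPM, against 81.2 to 85.7 CPM (0.896). Tsc22d4 in normal-salt library 3 had 177 CPM, against 166 to 168 CPM (0.874).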

How the results depend on the processing

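Limma called 11 genes over all genes, 0 without a filter (1933 at an unadjusted p under 0.05), 5 on TPM, 22 with robust moderation, 129 with array quality weights, 38 with a covariate made from thick ascending limb markers, and 0 to 50 with 1 library left out (0 without high-salt library 4 or normal-salt library 3, where 924 and 1231 had an unadjusted p under 0.05). Among the members 0 were called in any of these fits, and the 4 targets had lower means in all of them. Column numbers were not taken as pairs: deviations of libraries numbered 2, 3 and 6 correlated at 0.208, 0.287 and 0.00201 across diets. High-salt libraries 2 and 3 correlated best with their own number, library 6 did not, and most clock genes were highest in library 6 of both diets. A fit with that number as a replicate block called 38 genes and 0 members, with 4 members lower at an unadjusted p under 0.05. Numbers 1 and 4 occur in 1 diet each, so the fold changes of that fit compare numbers 2, 3 and 6 only. Normal-salt library 1 and high-salt library 4 add nothing to them. With array weights, where normal-salt library 1 had the lowest weight (0.239), 4 members were lower at such a p too. There was 1 each with the covariate, on TPM and without a filter. Of 13401 genes, 1774 had such a p in either direction with the block, 1792 with array weights and 1069 with the covariate. On TPM 1229 of 13623 genes had one, and without a filter 1933 of 30343. Weak fold changes turned sign. Nr3c1 was at -0.000171 with array weights, -0.0892 with the covariate and -0.0819 with the block, and Hsd11b2 at 0.00114 with array weights and 0.0319 with the block. H6pd was at -0.0386 with array weights and -0.0477 with the block, Rasd2 at 0.0103 with the covariate, and Srd5a1 at -0.0954 and Tsc22d2 at 0.0765 on TPM. With 1 library left out, ranges crossed 0 for Nr3c2 (-0.142 to 0.0811), Nr3c1 (-0.0940 to 0.160), Hsd11b2 (-0.0763 to 0.00899), H6pd (-0.0334 to 0.124), Srd5a1 (-0.0397 to 0.226), Tsc22d2 (-0.152 to 0.105), Jun (-0.515 to 0.0395), Junb (-0.334 to 0.0341), Hsd11b1 (-0.127 to 0.458) and the log2 ratio of Hsd11b2 to Nr3c2 (-0.192 to 0.177). The r of Fkbp5 and Zbtb16 was 0.834 to 0.959, and 0.921 centred by diet (exact permutation, adjusted p = 0.104), and that of Tsc22d3 and Rasd1 was 0.502 to 0.875. The causes were not tested. Hsd11b1 rests on 14 to 174 estimated counts a library.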
